A study of Mus musculus with 20 samples.

Results

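The genes described here encode the core of the pre-mRNA splicing machinery and its best known RNA-binding partners: every gene of the deposited count tables whose symbol begins with Srsf and a number, Hnrnp, Snrp, or Sf3a or Sf3b and a number. The rule found 49 genes among the 9973 of the treatment experiment and the same number among the 10706 of the Il25 experiment. They comprise 10 SR proteins, 19 hnRNPs, 11 Sm and other snRNP proteins and 9 subunits of SF3A and SF3B. Cells labelled as group 2 innate lymphoid cells (ILC2), lymphocytes that secrete type 2 cytokines, had been sorted from dissociated mouse thymus and profiled in bulk by MARS-seq, which counts tags at the 3′ ends of polyadenylated RNA. In the treatment experiment all 12 libraries came from wild-type females: untreated mice, mice given sublethal irradiation of 425 rad, mice injected into the thymus with 0.3 µg rIL-25, and mice given both, with 3 libraries per group, and treatment lasted 3 days. In the Il25 experiment all 8 libraries came from males irradiated with 425 rad, also with a treatment time of 3 days. Of these, 4 came from Il25 wild-type and 4 from Il25 knockout mice. No group was injected without rIL-25, so the cytokine and the injection cannot be told apart. The labels do not say that replicates were separate animals, and p-values therefore measure only the spread between these libraries.

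Splicing removes introns in the spliceosome, a complex of small nuclear ribonucleoproteins (snRNPs). Each snRNP that contains a Sm-class RNA carries a ring of Sm proteins (Snrpb, Snrpd1, Snrpd2, Snrpd3, Snrpe, Snrpf and Snrpg), and U1 and U2 add proteins of their own, such as Snrpa and Snrpc in U1 and Snrpa1 and Snrpb2 in U2. SF3A and SF3B belong to the U2 snRNP and help it to hold the branch site of the intron. SR proteins bind mostly exonic sequences and commonly favour the use of nearby splice sites, whereas hnRNPs coat the nascent transcript and commonly, though not always, oppose exon inclusion. In T lymphocytes, hnRNP L and its relative encoded by Hnrnpll are known regulators of the alternative exons of Ptprc, the gene for CD45.

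The promoters of 4 members are shown as examples: Srsf1 and Snrpe were lower, and Hnrnpl and Snrpd3 higher, after both treatments than after rIL-25. They are among the 8 members whose call in that comparison held whichever library was left out. Each promoter window runs from 250 bases before the RefSeq start to 50 bases after it, on the gene's own strand. The sequences are from RefSeq on GRCm38.p6: Srsf1 at chr11:88047123-88047422 on the plus strand, Snrpe at chr1:133610231-133610530 on the minus strand, Hnrnpl at chr7:28810640-28810939 on the plus strand and Snrpd3 at chr10:75517792-75518091 on the plus strand. Capitals mark matches on either strand to a CCAAT box (CCAAT), a GC box (GGGCGG), an E box (CACGTG) or an ETS core (CCGGAAG).
Srsf1: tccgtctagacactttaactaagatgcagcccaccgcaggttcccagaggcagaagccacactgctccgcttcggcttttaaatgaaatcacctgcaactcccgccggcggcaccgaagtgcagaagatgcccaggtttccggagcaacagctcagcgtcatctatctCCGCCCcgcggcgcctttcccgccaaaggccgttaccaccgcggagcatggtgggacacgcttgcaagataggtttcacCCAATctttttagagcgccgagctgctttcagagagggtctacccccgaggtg
Snrpe: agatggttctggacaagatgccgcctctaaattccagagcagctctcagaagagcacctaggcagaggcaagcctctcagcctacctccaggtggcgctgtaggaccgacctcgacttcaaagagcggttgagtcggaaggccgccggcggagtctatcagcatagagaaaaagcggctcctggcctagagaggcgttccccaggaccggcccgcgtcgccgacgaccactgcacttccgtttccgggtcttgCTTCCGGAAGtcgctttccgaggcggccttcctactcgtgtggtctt
Hnrnpl: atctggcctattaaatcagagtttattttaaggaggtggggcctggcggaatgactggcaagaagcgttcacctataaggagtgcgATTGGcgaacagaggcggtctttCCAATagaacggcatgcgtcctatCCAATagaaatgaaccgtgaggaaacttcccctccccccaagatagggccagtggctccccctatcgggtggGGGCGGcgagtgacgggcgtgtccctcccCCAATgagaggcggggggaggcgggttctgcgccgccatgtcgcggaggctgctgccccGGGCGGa
Snrpd3: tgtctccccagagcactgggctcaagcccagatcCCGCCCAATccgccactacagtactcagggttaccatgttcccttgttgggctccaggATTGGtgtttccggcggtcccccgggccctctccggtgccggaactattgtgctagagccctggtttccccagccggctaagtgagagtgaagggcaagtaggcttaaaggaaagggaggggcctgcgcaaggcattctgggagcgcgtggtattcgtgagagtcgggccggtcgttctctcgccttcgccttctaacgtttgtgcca

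The window of Srsf1 held 1 CCAAT box and 1 GC box, and that of Hnrnpl held 4 CCAAT boxes and 2 GC boxes. That of Snrpd3 held 2 CCAAT boxes and 1 GC box, one of each overlapping, and that of Snrpe held 2 ETS cores that overlap as a palindrome. Of the 43 members with a promoter entry, 69.8% held a GC box and 37.2% an ETS core, against 35.9% and 9.12% of all 27025 promoters in the table. CCAAT boxes occurred in 46.5% of members and 37.9% of all promoters, and E boxes in 11.6% and 7.24%. These are matches of letters only. The 27025 promoters were neither restricted to genes tested here nor matched for GC content. The shares therefore do not set members apart from other expressed genes.

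Depth was 495079 to 1460702 counts per library in the treatment experiment and 2093288 to 4420831 in the Il25 experiment. Members took 1.003% to 1.302% of the counts in the former and 1.192% to 1.338% in the latter. Il25 itself had 3, 7, 17 and 10 counts in the wild-type libraries and 0 in each of the 4 knockout libraries. The ILC2 markers Gata3 and Il17rb were present at 211 and 202 CPM (counts scaled to library depth with TMM factors) in untreated mice, but Il1rl1, Klrg1, Il5 and Areg had 3, 3, 1 and 1 counts over the 3 untreated libraries together. Dntt, the terminal transferase of developing lymphocytes, stood at 2153 CPM there, and at 966, 1559 and 1152 CPM in the irradiated, rIL-25 and doubly treated groups. Areg was at 0 in all 3 irradiated libraries. Of the 7 T cell and thymocyte markers that could be tested, 3 rose and 1 fell after irradiation and 4 rose and 1 fell after both treatments, Cd3d from 117 to 676 and 491 CPM. The summed ILC2 list was 1752 to 2346 CPM in untreated libraries, 3349 to 4767 in irradiated, 2036 to 2530 in rIL-25 and 3315 to 4269 in doubly treated ones. Most of that sum was Thy1, also a gene of thymocytes, with means of 1483, 3380, 1694 and 2423 CPM in these groups. Of the 9 ILC2 markers tested, 2 were called after irradiation, Thy1 and Id2. After both treatments against untreated 6 were called, all higher, and the median log2 difference of the 9 was 2.91. Summed early progenitor and mast cell genes were at 330 to 502 CPM in untreated, 53.5 to 112 in irradiated, 346 to 531 in rIL-25 and 33.7 to 105 in doubly treated libraries. The summed myeloid and dendritic list was 42.5 to 201 CPM in the libraries of the treatment experiment other than rIL-25 replicate 3, which had 1191. These marker levels differed between groups that are compared below, and their part in the members' differences was not tested. In bulk samples, fewer cells of a type and less RNA per cell cannot be told apart.

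**Figure D1:**
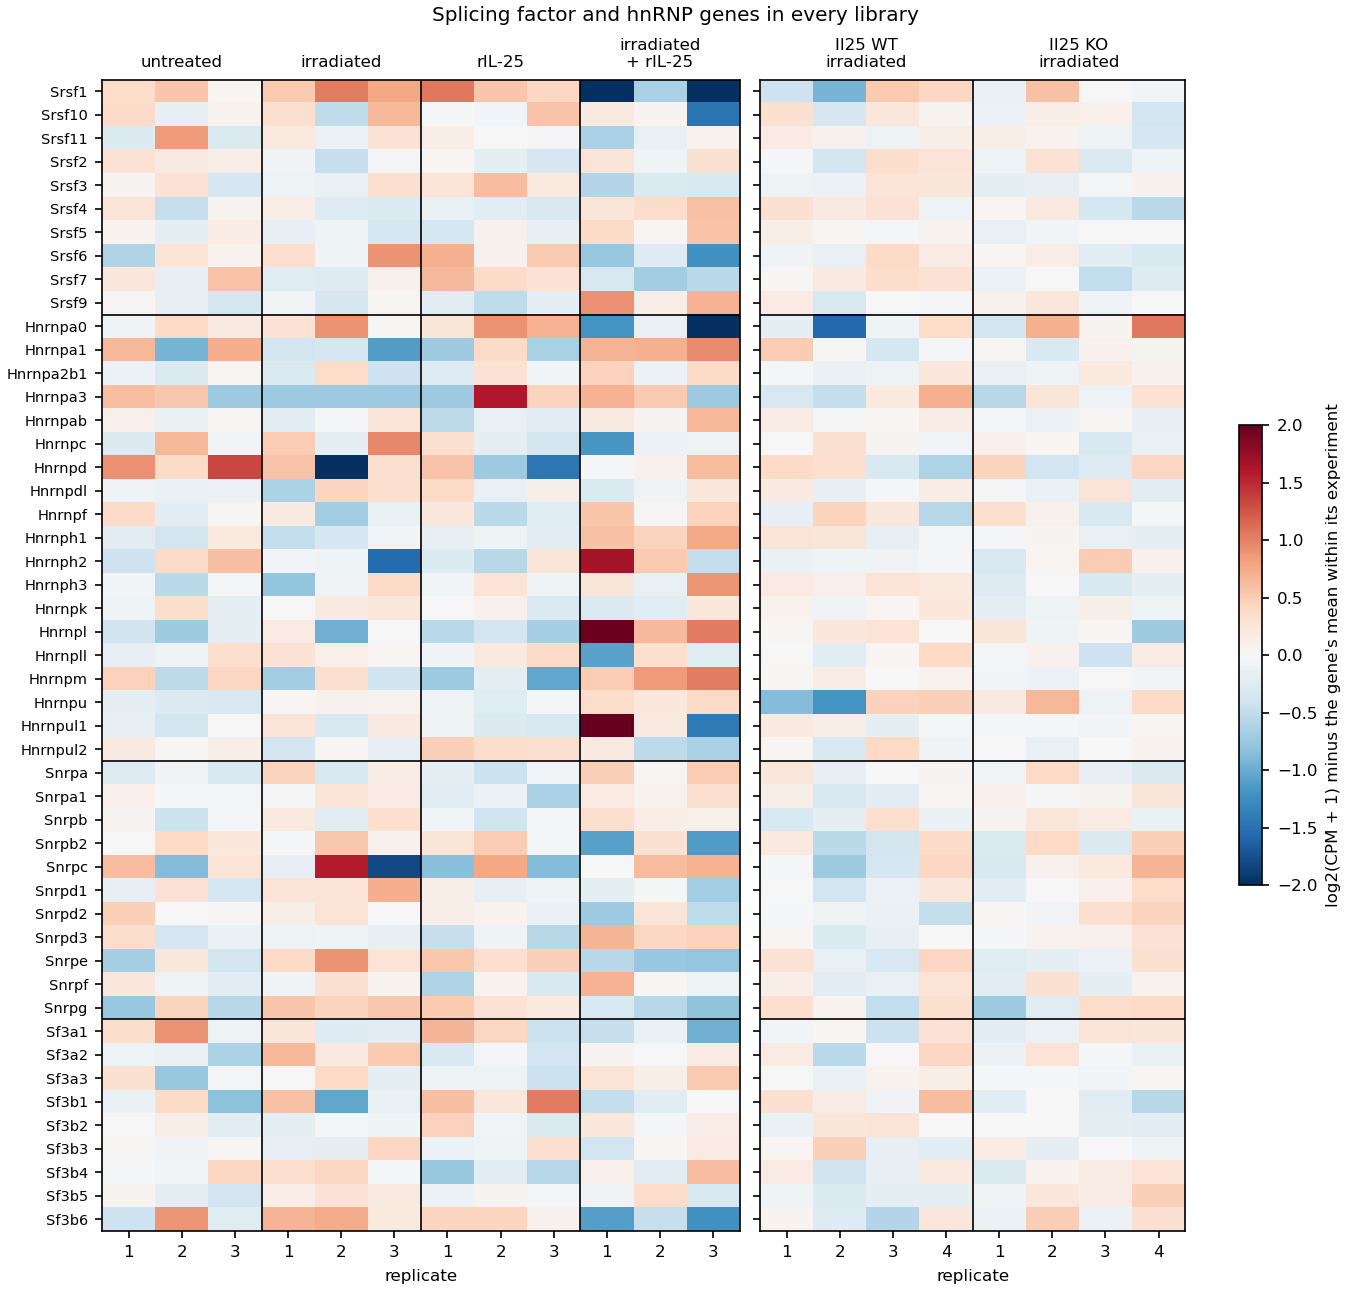
Level of each of the 49 genes (rows, by family) in each library (columns, by group and replicate) as log2(CPM + 1) minus the gene's mean within its experiment, capped at 2 in colour. In the treatment experiment Srsf1 and Hnrnpa0 are blue in the 3 doubly treated libraries and Hnrnpl is red there.

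Of the 49 members, 45 passed the filter on low counts in the treatment experiment and 47 in the Il25 experiment. Hnrnpa3, Hnrnpd, Hnrnph2 and Sf3b1 did not pass in the former, and Hnrnpa3 and Hnrnph2 did not pass in the latter. Sf3b1, the large subunit of SF3B that contacts the branch site region, had only 10, 8, 24 and 12 counts over the 3 libraries of the untreated, irradiated, rIL-25 and doubly treated groups. Hnrnpa3 was at 0 in all 3 irradiated libraries. Genes of these families have many processed pseudogenes in the mouse genome, and how tags shared with such copies were counted is not given in the sources used here.

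After irradiation alone, Sf3a2 and Snrpe were higher than in untreated mice and no member was lower. The 2 members called (adjusted p under 0.05 in edgeR's quasi-likelihood test) are 4.44% of those tested, beside 4.02% of all genes called, 2.22% higher and 1.8% lower, so the members' share was near that of all genes. Sf3a2, a subunit of SF3A, had 160, 156 and 110 CPM in untreated libraries and 271, 194 and 247 CPM in irradiated ones. The groups did not overlap, and the log2 fold change was 0.75 ± 0.20 (SE, adjusted p = 0.0376 in edgeR). Snrpe, which encodes the Sm ring protein E, had 137, 252 and 168 CPM untreated and 287, 405 and 263 CPM irradiated, with a log2 fold change of 0.78 ± 0.22 (adjusted p = 0.0459 in edgeR). Untreated replicate 2 came near the lowest irradiated library for Snrpe. Sf3a2 lost its call with a minimum count of 30 and with a correction for GC content over the 500 bases at the 3′ end of each transcript (the GC offset), and Snrpe lost it with no filter, with that minimum and with only the 2 groups compared. Sf3a2 was called in 6 and Snrpe in 3 of the 12 fits that left out 1 library, and no member was called without untreated replicate 1 or 3, irradiated replicate 1 or 3, or rIL-25 replicate 1. With 1 member called each were the fits without irradiated replicate 2, rIL-25 replicate 2 or 3, or doubly treated replicate 2, and without untreated replicate 2 there were 3.

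No other member passed the test after irradiation. In log2 units the median difference of the 45 members was 0.10, against 0.02 for all genes, and 31 members were above 0. By family the median was 0.25 for Sm and snRNP proteins, of which 9 of 11 were above 0, 0.16 for SF3A and SF3B, 0.08 for hnRNPs and −0.02 for SR proteins. Snrpg, the Sm ring protein G, differed by 0.71 ± 0.24 (adjusted p = 0.104 in edgeR). Its irradiated libraries had 375, 350 and 372 CPM, and the untreated ones 150, 348 and 174, so that a single untreated library reached almost the irradiated level. Hnrnpa1, an hnRNP that commonly opposes SR proteins at splice sites, had 87, 28.1 and 90.8 CPM untreated and 42.2, 43.1 and 24.5 CPM irradiated, a log2 difference of −0.89 ± 0.39 that did not pass (adjusted p = 0.207 in edgeR). Untreated replicate 2 again lay apart from the other two. The members with most tags in their families were close to equal: Hnrnpab differed by 0.01, Hnrnpk by 0.08, Snrpd2 by −0.04, Snrpb by 0.25 and Sf3b2 by −0.07 on the log2 scale. Srsf2 and Srsf5, SR proteins with most tags in theirs, differed by −0.38 and −0.21, and Sf3b5 by 0.37. Srsf6, Srsf1, Hnrnpm and Sf3a1 differed by 0.47, 0.46, −0.38 and −0.49, with adjusted p of 0.437, 0.457, 0.49 and 0.526 in edgeR.

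After rIL-25 alone no member and no other gene was called against untreated mice (0% of 7482 genes by edgeR). DESeq2 and limma voom also called 0, and 336 genes, 4 of them members, had an unadjusted p under 0.05. These 4 were Snrpe, with a log2 difference of 0.68, Snrpg with 0.54, Hnrnpm with −0.79 and Sf3b4 with −0.61, each at an adjusted p of 0.999 in edgeR; they were named after their values were seen. The Snrpe libraries of the rIL-25 group had 316, 275 and 304 CPM, above all 3 untreated ones. Members had a median of −0.03 and all genes of 0.01.

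**Figure D2:**
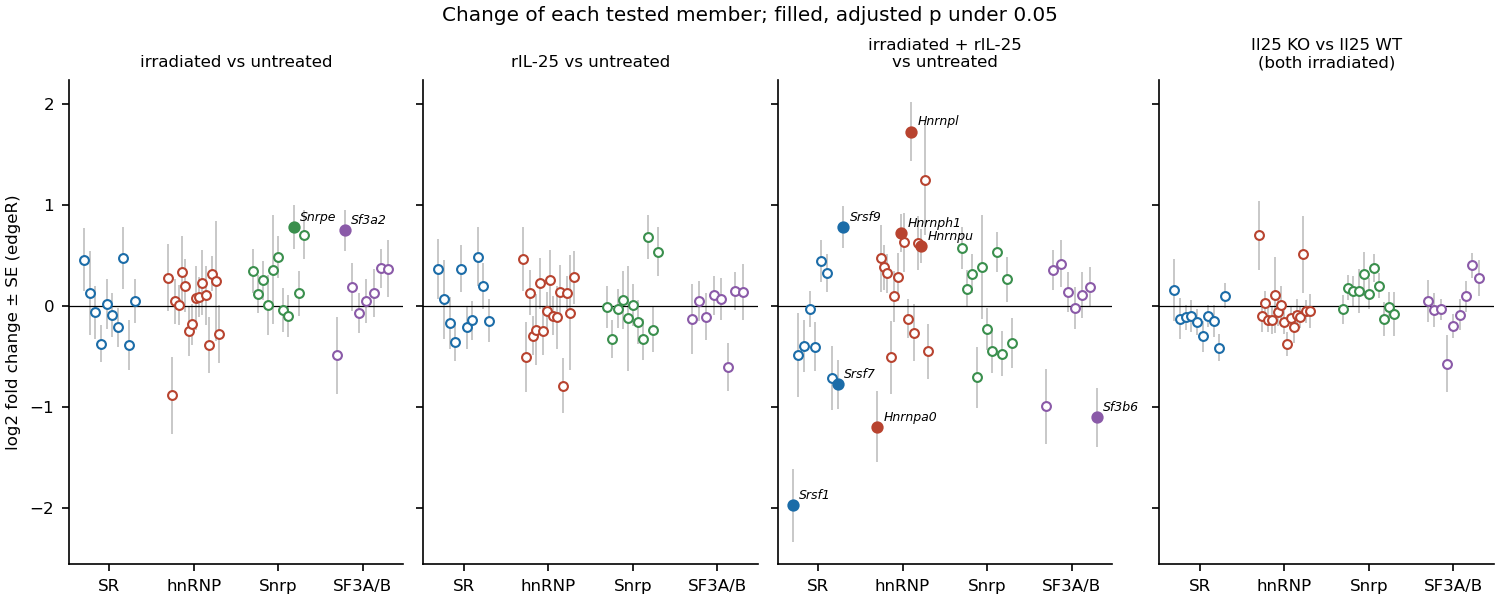
log2 fold change (y axis, ± SE, edgeR) of each tested member, by family (x axis), in the 3 treatments against untreated and in Il25 knockout against wild type, filled where the adjusted p is under 0.05. Filled points number 2, 0, 8 and 0 from left to right, and in the doubly treated group Srsf1 and Hnrnpl lie farthest from 0.

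Both treatments together gave differences in both directions within the same families. Against untreated mice 8 members were called, 4 higher and 4 lower, which is 17.8% of those tested beside 8.93% of all genes, 4.22% higher and 4.7% lower. Hnrnpl, Hnrnph1, Hnrnpu and Srsf9 rose, and Srsf1, Hnrnpa0, Sf3b6 and Srsf7 fell. The median over the members was 0.14, against −0.01 for all genes; it was 0.35 for hnRNPs, 0.17 for Sm and snRNP proteins, 0.12 for SF3A and SF3B and −0.40 for SR proteins, of which 7 of 10 were below 0. The count depended on single libraries: it was 3 without untreated replicate 2 or doubly treated replicate 1 or 3, and 4 without untreated replicate 3.

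Srsf1 encodes the SR protein also known as SF2/ASF, a general and alternative splicing factor; it lies at chr11:88047373-88053755 (mm10, plus strand). It had 65.3, 74.5 and 52 CPM in untreated libraries and 8.45, 31.9 and 10 CPM after both treatments. In doubly treated replicates 1, 2 and 3, 3 counts correspond to 4.99, 4.11 and 2.12 CPM. The Srsf1 levels there, lowest in replicate 1, thus rest on few counts. Irradiated libraries had 73, 104 and 86.9 CPM and rIL-25 libraries 106, 74.4 and 67.4 CPM. Every doubly treated library was thus below every library of the other groups, with replicate 2 the highest of the 3. The log2 difference was −1.97 ± 0.36 against untreated (adjusted p = 0.00165), −2.43 ± 0.36 against irradiated (adjusted p = 0.00151) and −2.34 ± 0.35 against rIL-25 (adjusted p = 0.000215), all in edgeR. These comparisons share the same 3 doubly treated libraries. All 3 calls held in each of the 12 fits that left out 1 library.

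Hnrnpl, at chr7:28808541-28822266 (mm10, plus strand), went the other way. It had 79, 63.2 and 92 CPM in untreated libraries, 117, 52.9 and 105 after irradiation, 70.9, 79.8 and 64.8 in the rIL-25 group, and 407, 164 and 214 when both were given. The doubly treated libraries lay above all others, replicate 1 by far the highest. The log2 difference was 1.72 ± 0.30 against untreated (adjusted p = 0.000843), 1.49 ± 0.30 against irradiated (adjusted p = 0.00857) and 1.84 ± 0.29 against rIL-25 (adjusted p = 0.000394), all in edgeR and all kept in each of the 12 fits that left out 1 library. Hnrnpll, the relative of Hnrnpl, had 25.3, 67.9 and 45.9 CPM after both treatments and 48.6, 50.6 and 69 in untreated mice, groups that overlap; it was named after its values were seen.

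The other hnRNPs called against untreated mice were Hnrnph1, Hnrnpu and Hnrnpa0. Hnrnph1, which binds runs of G, had 164, 149 and 221 CPM untreated and 291, 263 and 327 CPM after both treatments, with no overlap (log2 0.72 ± 0.19, adjusted p = 0.0203 in edgeR). Hnrnpu, a scaffold protein that binds RNA and chromatin, was tight within groups at 216, 204 and 198 CPM untreated and 318, 285 and 325 CPM after both (log2 0.59 ± 0.17, adjusted p = 0.0298 in edgeR). Hnrnpa0, a relative of Hnrnpa1, had 132, 185 and 159 CPM untreated and 60.8, 126 and 29.4 CPM after both, groups that came close at doubly treated replicate 2 (log2 −1.20 ± 0.35, adjusted p = 0.0348 in edgeR). Each of these calls was lost in some fits that left out 1 library: Hnrnph1 in those without untreated replicate 1 or 2 or doubly treated replicate 3, Hnrnpu in 5 and Hnrnpa0 in 4 of 12. The last 2 also lost the call with only the 2 groups compared. The largest difference that did not pass was that of Hnrnpul1, at 1.24 ± 0.54 (adjusted p = 0.161 in edgeR): its doubly treated libraries had 267, 58.2 and 18.6 CPM, and without replicate 1 the difference was −0.34.

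Among SR proteins Srsf9 rose, with 166, 146 and 128 CPM untreated and 309, 180 and 265 CPM after both treatments (log2 0.78 ± 0.21, adjusted p = 0.021 in edgeR), a call that was lost without untreated replicate 2 or 3 or doubly treated replicate 1 or 3. Srsf7, an SR protein that also takes part in mRNA export, fell from 74.4, 56.2 and 94.4 to 50.7, 38.8 and 43 CPM (log2 −0.78 ± 0.24, adjusted p = 0.0468 in edgeR). The Srsf7 groups did not overlap but came near each other, and the call stood in only 2 of the 12 fits that left out 1 library. The Srsf7 call was also lost with RLE size factors, no filter, the GC offset, the replicate number as a block, DESeq2 and only the 2 groups compared. Of SF3B, Sf3b6, the small subunit that lies at the branch point, fell from 116, 285 and 130 to 71, 112 and 66 CPM (log2 −1.10 ± 0.29, adjusted p = 0.0203 in edgeR). Untreated replicate 2 was the high library for Sf3b6, and the call was lost without it, without doubly treated replicate 1 or 3, and with voom. In the same SF3B and SF3A families Sf3a1 differed by −0.99 ± 0.37 (adjusted p = 0.0992 in edgeR). No Sm or snRNP protein was called against untreated mice; Snrpa differed by 0.57 and Snrpb2 by −0.71, with adjusted p of 0.0913 and 0.147 in edgeR.

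**Figure D3:**
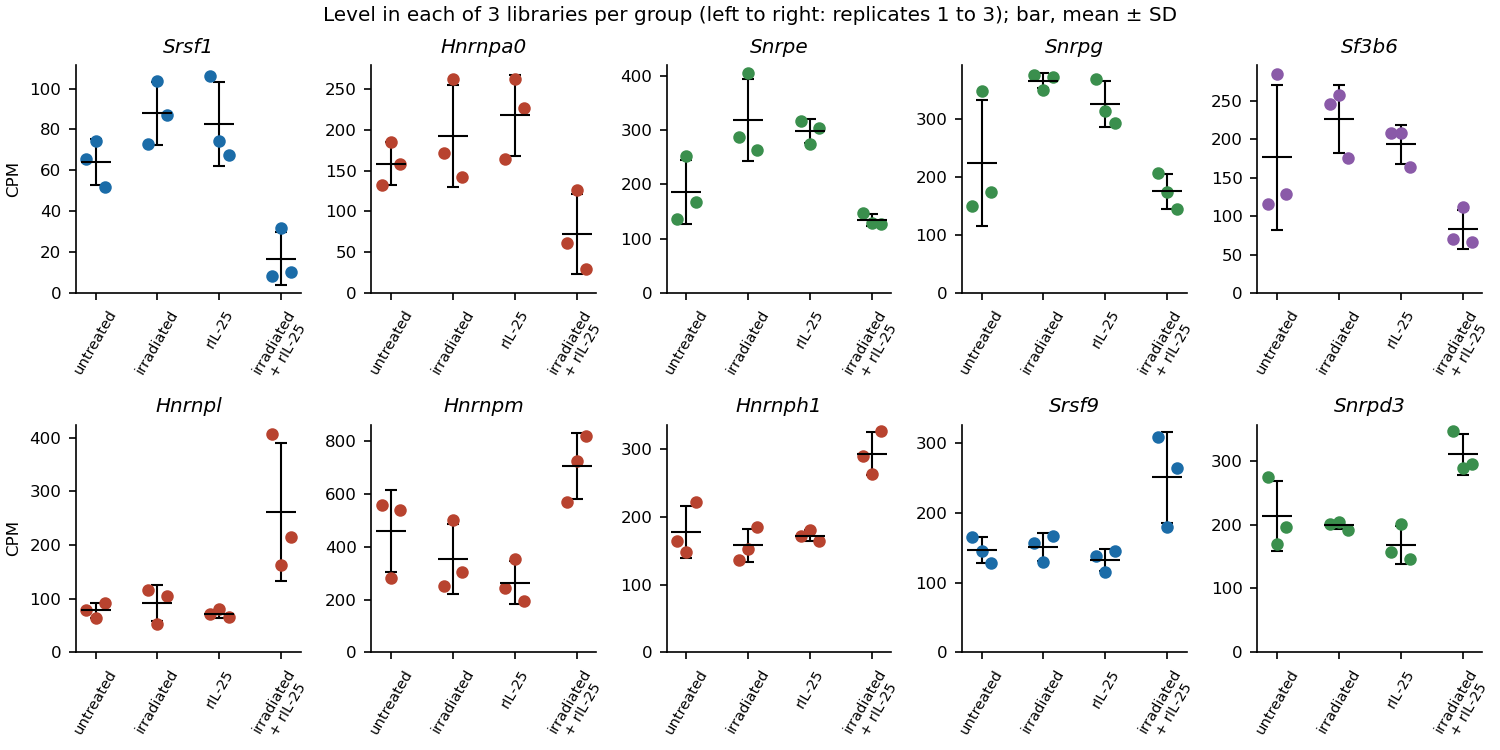
CPM (y axis, from 0) of 10 members in each of the 3 libraries of every treatment group (x axis), with mean ± SD. The doubly treated group is lower in the 5 genes of the top row and higher in the 5 of the bottom row, although it overlaps the untreated group in Snrpe and Snrpg.

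Adding rIL-25 to irradiation was followed by 7 called members, 2 higher and 5 lower, which is 15.6% of members beside 2.51% of all genes, 0.642% higher and 1.87% lower. The higher ones were Hnrnpl and Hnrnph1 (log2 0.90 ± 0.20, adjusted p = 0.0143 in edgeR). The lower ones were Srsf1, Hnrnpa0, Sf3b6 and the Sm ring proteins Snrpe and Snrpg. Snrpe fell from 287, 405 and 263 CPM to 147, 129 and 126 CPM, with doubly treated libraries close together (log2 −1.25 ± 0.22, adjusted p = 0.00387 in edgeR, kept in all 12 fits that left out 1 library). Snrpg fell from 375, 350 and 372 to 206, 173 and 146 CPM (log2 −1.08 ± 0.25, adjusted p = 0.0192 in edgeR). For Sf3b6 the log2 difference was −1.47 ± 0.29 (adjusted p = 0.00857) and for Hnrnpa0 −1.47 ± 0.35 (adjusted p = 0.0252), both in edgeR. The Hnrnpa0 call was lost with only the 2 groups compared. Of the 12 fits that left out 1 library, the call stood in 11 for Sf3b6, 10 for Hnrnph1, 9 for Snrpg and 8 for Hnrnpa0. The Sm ring genes did not move as a block: Snrpb, Snrpd1, Snrpd2, Snrpd3 and Snrpf were not called in this comparison. Without irradiated replicate 1 there were 4 called members, without doubly treated replicate 3 there were 3, and without doubly treated replicate 2 there were 13.

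Adding irradiation to rIL-25 was followed by 16 called members, 8 higher and 8 lower, which is 35.6% of members beside 15.3% of all genes, 6.51% higher and 8.75% lower. The higher ones were Hnrnpl, Hnrnpm, Hnrnph1, Hnrnpab, Srsf9, Srsf4, Snrpd3 and Sf3b4. The lower ones were Srsf1, Srsf3, Srsf6, Srsf7, Hnrnpa0, Snrpe, Snrpg and Sf3b6. Hnrnpab, Srsf3, Srsf4 and Sf3b4 were the 4 with the largest p among the 16, between 0.00318 and 0.00572 before adjustment, and each lost its call under at least 1 other setting; Sf3b4 alone overlapped between the groups. Hnrnpm, which takes part in splice site choice in several mammalian cell types, had 243, 354 and 196 CPM after rIL-25 and 571, 726 and 821 CPM after both, far apart (log2 1.41 ± 0.27, adjusted p = 0.00169 in edgeR). Snrpd3, the Sm ring protein D3, had 157, 202 and 146 CPM against 346, 288 and 295 CPM (log2 0.87 ± 0.20, adjusted p = 0.00523 in edgeR). Snrpe had a log2 difference of −1.16 ± 0.22 (adjusted p = 0.00147 in edgeR), so Sm proteins of the same ring were called in opposite directions. Srsf6 fell from 95.4, 61.5 and 83.9 to 33.8, 48.5 and 24.4 CPM (log2 −1.20 ± 0.31, adjusted p = 0.0109 in edgeR). The count was 10 without rIL-25 replicate 1 and 9 without doubly treated replicate 3, and 8 of the 16 calls held in all 12 fits that left out 1 library: Hnrnpa0, Hnrnpl, Hnrnpm, Snrpd3, Snrpe, Srsf1, Srsf7 and Srsf9.

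The interaction tests whether irradiation made the same difference with rIL-25 as without it. In this contrast 7 members were called, 1 positive and 6 negative, which is 15.6% of members beside 2.07% of all genes, 0.361% positive and 1.71% negative. Snrpe was 0.78 higher with irradiation alone and 1.16 lower with irradiation on top of rIL-25 (log2), an interaction of −1.94 ± 0.31 (adjusted p = 0.00213 in edgeR). For Srsf1 the interaction was −2.80 ± 0.47 (adjusted p = 0.00294 in edgeR). These 2 held in all 12 fits that left out 1 library. Hnrnpm was the positive one, at 1.80 ± 0.39 (adjusted p = 0.016 in edgeR); its mean was 459 CPM in untreated, 353 in irradiated, 264 in rIL-25 and 706 in doubly treated mice. Hnrnpa0, Snrpg, Sf3b6 and Srsf6 had interactions of −1.94, −1.61, −1.60 and −1.67, with adjusted p of 0.0326, 0.0155, 0.0383 and 0.0442 in edgeR. Of these, Srsf6 lost its call with the GC offset and with the replicate number as a block. With the GC offset 9 members were called, 6 of them also called without it, so the split by sign depended on this setting. Hnrnpa1, Hnrnpl and Hnrnph1 were then called as well, all positive, at 2.005, 1.656 and 1.057 (adjusted p of 0.0329, 0.043 and 0.0447 in edgeR). The untreated libraries weigh on the calls made without that offset. Their count was 2 without untreated replicate 1 or 3 or without doubly treated replicate 3, and 3 without irradiated replicate 1. It was 4 without irradiated replicate 3, rIL-25 replicate 1 or doubly treated replicate 1. It was 11 without untreated replicate 2 and 12 without doubly treated replicate 2.

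**Figure D4:**
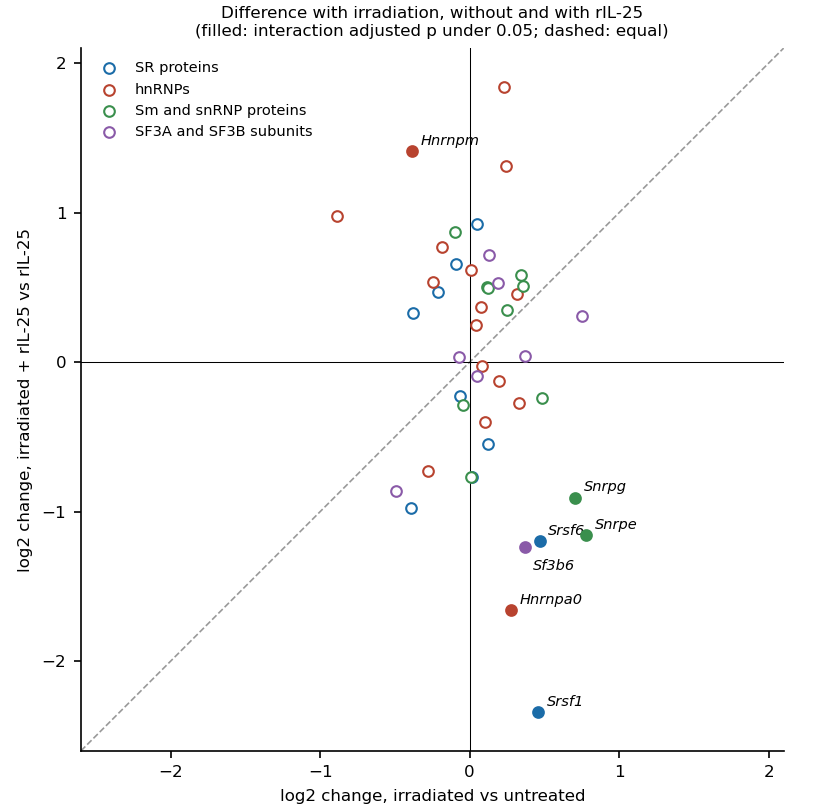
For each tested member, the log2 difference with irradiation in mice without rIL-25 (x axis) and with rIL-25 (y axis); the dashed line marks equal differences and filled points passed the interaction test. The 6 filled points below the line, led by Srsf1 and Snrpe, are above 0 on the x axis and below 0 on the y axis, and Hnrnpm is the reverse.

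As summed levels the families differed less than their single members. The hnRNP sum was 4138, 3615 and 4098 CPM in untreated libraries, 3495, 4113 and 4164 after irradiation, 3268, 3843 and 3379 in the rIL-25 group, and 5026, 4416 and 5756 when both were given. The doubly treated libraries were above all others (5066 ± 671, mean ± SD, n = 3), with an exact permutation p of 0.1 against each other group, the smallest that 3 against 3 allows. Over the 30 such tests made, the adjusted p was 0.3. The Sm and snRNP sum was 4478, 4653 and 4759 CPM after irradiation, above all untreated (3596 to 4204), rIL-25 (3691 to 3973) and doubly treated libraries (3569 to 4215). The SF3A and SF3B sum was likewise highest after irradiation, at 1713 ± 63 CPM against 1464 ± 120 in untreated mice (SD, n = 3), and the SR sum overlapped between all groups.

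**Figure D5:**
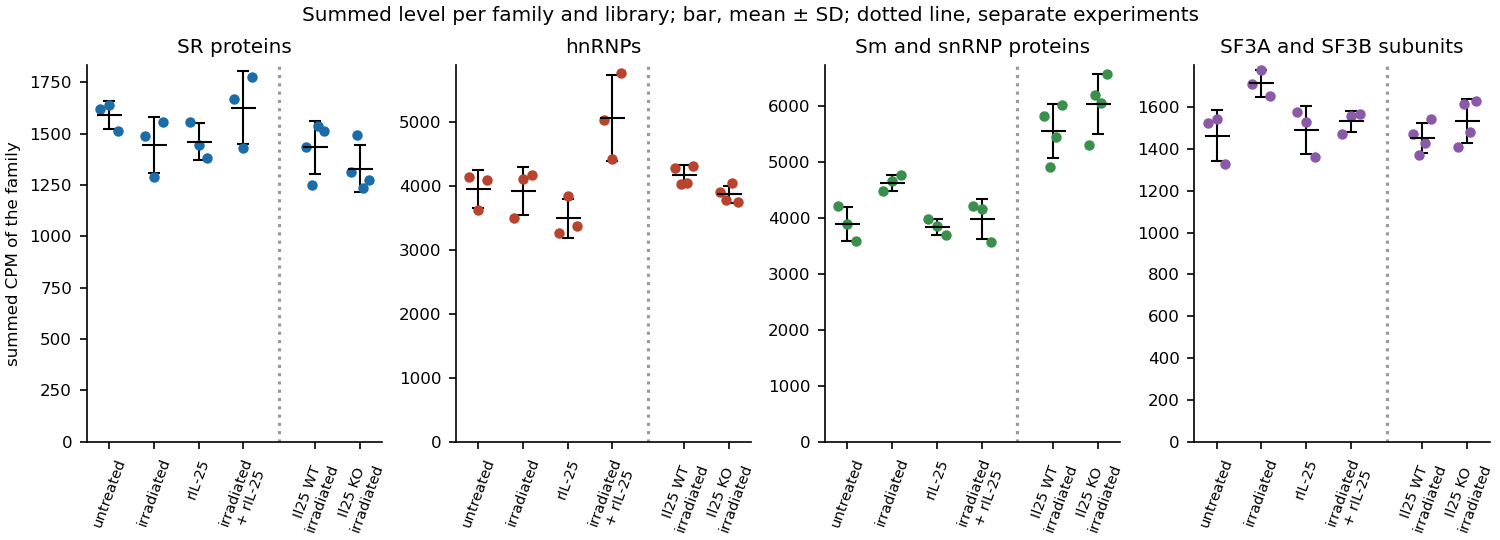
Summed CPM (y axis, from 0) of each family in every library by group (x axis), with mean ± SD; the dotted line separates the 2 experiments, which were scaled separately. The hnRNP sum is highest in the 3 doubly treated libraries (4416 to 5756) and the Sm and snRNP sum in the irradiated ones of that experiment (4478 to 4759).

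In irradiated males, no member passed the test between Il25 knockout and wild-type libraries with edgeR, DESeq2 or limma voom. That is 0 of 47 in edgeR, beside 1.77% of all genes, 1.57% higher and 0.204% lower. An unadjusted p under 0.05 in edgeR was reached by 4 of the 47 members, beside 1035 of all 8812 genes tested. Those 4 were Sf3b5, Hnrnph3, Srsf7 and Snrpd2. Sf3b5, a small subunit of SF3B, had 352, 305, 326 and 327 CPM in wild-type libraries and 355, 438, 417 and 520 CPM in knockout libraries, groups that touch without overlapping (log2 0.40 ± 0.13, adjusted p = 0.17 in edgeR). Srsf7 had 54.7, 61.2, 68.7 and 65.9 CPM in wild type and 49.7, 54.3, 38.1 and 44.6 CPM in knockout (log2 −0.41 ± 0.14, adjusted p = 0.189 in edgeR). Hnrnph3 differed by −0.37 ± 0.12 and Snrpd2, the Sm ring protein D2, by 0.37 ± 0.14, with adjusted p of 0.174 and 0.285 in edgeR. The largest difference among hnRNPs was that of Hnrnpa0, at 0.70 with a 95% interval of −0.03 to 1.42 (unadjusted p = 0.0587 in edgeR), and Hnrnpu had 0.51 with an interval of −0.30 to 1.31. Sf3b1, Snrpc and Srsf4 differed by −0.57, 0.31 and −0.30, and none passed. Over the members the median was −0.05 and over all genes −0.005, with 18 of 47 above 0; the 95% intervals of the members lay within −1.17 and 1.42. Sm and snRNP proteins had a median of 0.15 and SR proteins of −0.12. The hnRNP sum was 4166 ± 152 CPM in wild type and 3868 ± 137 in knockout (SD, n = 4), with an exact two-sided permutation p of 0.0571 and an adjusted p of 0.3. The summed T cell and thymocyte markers were 2189 to 2668 CPM in wild type and 1891 to 1975 in knockout; in that list Dntt fell from a mean of 953 to 597 CPM, and Cd3d was at 482 and 454 CPM. Myeloid markers summed to 41.9 to 67.2 CPM in wild type and 96.2 to 115 in knockout, early progenitor and mast cell genes to 25.4 to 35.0 and 39.6 to 58.1, and proliferation genes to 6400 to 6761 and 5936 to 6339, with 13 of 15 proliferation genes below 0 and none called. Of the 11 ILC2 markers tested 6 rose in the knockout. Their part in the values above was not tested.

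In a list of other splicing genes, whose symbols the rule does not cover, Ddx39 rose after irradiation, and Alyref rose and Ddx5 fell after both treatments. The list is set apart by symbol and not by family, and it holds further snRNP genes such as Snrnp70. Of 143 tested, 1 rose and 1 fell after irradiation (1.4% beside 4.02% of all genes), none was called after rIL-25, and 9 rose and 4 fell after both treatments against untreated, that is 9.09% beside 8.93% of all genes. After irradiation Ddx39, an RNA helicase of mRNA export, rose by a log2 of 0.80 ± 0.20 (adjusted p = 0.024) and Ddx17, a helicase that assists splicing, differed by −0.72 ± 0.18 (adjusted p = 0.0261), both in edgeR. After both treatments Alyref, an mRNA export adaptor, was at 202 ± 146 CPM against 43 ± 11.7 in untreated mice (log2 2.19 ± 0.36, adjusted p = 0.000662 in edgeR). Ddx39 and Rbm17 also rose then, by 0.87 and 0.92, and Ddx5, Matr3 and Tardbp fell by 1.36, 1.16 and 1.26 on the log2 scale. Against irradiated mice 4 rose and 5 fell, 6.29% beside 2.51% of all genes, and against rIL-25 mice 16 rose and 15 fell, 21.7% beside 15.3%. Mbnl1, a regulator of alternative splicing, was at 164 ± 75 CPM after both treatments, 411 ± 45 after irradiation and 429 ± 54 after rIL-25 (SD, n = 3), with an interaction of −1.96 ± 0.37 (adjusted p = 0.007 in edgeR). The interaction also passed for Dhx9 and Pcbp1, at 1.91 and 1.11, and for Ptbp3 and Tial1, at −1.93 and −2.69, so that 3.5% passed beside 2.07% of all genes. In the Il25 experiment 1 of 144 was called, 0.694% beside 1.77% of all genes: Ppih, a cyclophilin of the tri-snRNP, had 8.09 ± 3.4 CPM in wild type and 22.5 ± 7.8 in knockout (SD, n = 4; log2 1.46 ± 0.31, adjusted p = 0.0207 in edgeR).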

How the data were processed

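Bulk MARS-seq libraries of cells sorted from mouse thymus were analysed: 12 in 4 treatment groups of 3, and 8 in 2 Il25 genotype groups of 4. For each experiment the authors deposited a table of raw counts by gene and library. The submitters' processing notes name bcl2fastq, cutadapt, STAR 2.5.2b, HTSeq, DESeq2 and the build mm10; the annotation release is not given in the sources used here. By its name the Il25 table counts molecular identifiers; whether the treatment table does is not stated, so its counts may include copies of 1 molecule. The 40 other per-sample columns (normalized or transformed values) were not used.

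Counts were fitted per experiment in R 4.3.3 with edgeR 4.0.16 (TMM scaling, filterByExpr with minimum count 10, quasi-likelihood F-test), and p-values were adjusted by Benjamini-Hochberg over all genes tested, 7482 and 8812, with calls at 0.05. The SE of a log2 fold change is that change divided by the square root of F. Levels are CPM after TMM scaling, and they were scaled separately in the 2 tables. Family sums were compared by an exact two-sided permutation test over libraries. As a check of the code, the first comparison of each experiment was also fitted to simulated counts with the same dispersion for every gene. Such counts do not test the spread of the real libraries. Alternatives were RLE size factors, other count filters, the replicate number as a block, DESeq2 1.42.0, limma 3.58.1 voom with quality weights, only the 2 groups compared, each library left out, and, chosen after seeing the data, an offset for GC content of the last 500 transcript bases. Intervals are 95%, from the t distribution with the degrees of freedom of the quasi-likelihood fit.

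The members, lists and tests were chosen with earlier results of these data known. Genes were named by rule: every called member (the 12 with the smallest p where there were more), per family the 2 with the highest CPM and the 2 with the largest difference in the comparisons of irradiated, doubly treated and Il25 knockout mice, and members that failed the filter; of the other splicing genes, the called ones, at most 6 per comparison. Other named genes were chosen after their values were seen.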

Additional observations from a re-analysis of the deposited data

Results flagged for a closer look

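The test of the interaction itself was passed by 7 members (edgeR, log2): Srsf1 at −2.80, Hnrnpa0 at −1.94, Snrpe at −1.94, Srsf6 at −1.67, Snrpg at −1.61, Sf3b6 at −1.60 and Hnrnpm at 1.80. Of these, Srsf1 and Snrpe kept the call in each of the 12 fits that left out 1 library. The call stood in 9 of the 12 for Snrpg, 6 for Hnrnpm, 4 for Hnrnpa0, 4 for Srsf6 and 3 for Sf3b6.

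In 1 of 98 groups checked, a library lay apart from the rest of its group: Hnrnpa1 in Il25 knockout replicate 2 had 87.6 CPM, while the other 3 knockout libraries had 110.5 to 114.8 CPM. Groups were checked only where they held 4 libraries, and chance flags about 1 in 20 groups.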

How the results depend on the processing

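None of the 40 called log2 differences recomputed changed direction under any alternative, and 9 of the 41 that were not called did, among them Hnrnpul1 after both treatments against untreated, at −0.34 without doubly treated replicate 1. Counts of called members that moved by over 1.5 times were, for irradiated against untreated, 1 with no filter, 0 with a minimum count of 30, 1 with the GC offset and 1 with only the 2 groups compared. Doubly treated against untreated gave 5 with only the 2 groups compared; doubly treated against irradiated gave 12 with DESeq2 and 11 with voom; the interaction gave 11 with each of these. Counts over all genes were 541 (irradiated against untreated) and 417 (interaction) with voom, and 125 for doubly treated against irradiated with only the 2 groups compared. The causes were not tested. Leaving out 1 library gave 0 to 3 members (86 to 370 genes) for irradiated against untreated, 0 to 0 (0 to 3) for rIL-25, 3 to 10 (271 to 896) for both treatments against untreated, 3 to 13 (42 to 358) against irradiated, 9 to 22 (460 to 1318) against rIL-25, 2 to 12 (29 to 347) for the interaction and 0 to 0 (105 to 174) for Il25 knockout. With the replicate number as a block, called members were 2, 0, 8, 8, 17, 7 and 0 in the same order. The numbers were not taken to pair the samples. For each gene tested the group mean of log2(CPM + 1) was subtracted, and these deviations were correlated between libraries of different groups. In same-numbered libraries they correlated at −0.176 to 0.364 in the treatment experiment, over 0.1 in 4 of 18 pairs. In the Il25 experiment the range was −0.206 to 0.251. Deviations sum to 0 within a group, so these correlations are not independent of one another. All 3 same-numbered pairs of the irradiated and rIL-25 groups were over 0.1 (0.126, 0.364 and 0.189), and their different-numbered pairs lay between −0.231 and 0.0594. These groups were not compared directly, but both enter the interaction with the same sign, and the main fit takes their libraries as independent. Across members the log2 difference after both treatments against untreated correlated with GC content at 0.248 (45 genes that share libraries), and with the GC offset 7 of the 8 calls remained; for irradiated against untreated the correlation was 0.336, and 1 of 2 calls remained. The count filter left out 4 members in the treatment experiment, which enter only the fit with no filter.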

Other observations

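The irradiated wild-type groups of the 2 experiments differ in sex, cohort and scaling. By its name the Il25 table counts molecular identifiers, and whether the treatment table does is not given, nor is the annotation of either. These sources of difference cannot be told apart. Of 45 members tested in both, 3 had a mean CPM more than 4-fold higher in the females and none in the males, which is 6.67% beside 4.03% of 6980 genes. Hnrnpu was at 257 CPM in the irradiated females and 6.86 in the irradiated Il25 wild-type males, a ratio of 37.4. Hnrnpa0 was at 192 and 22.2 CPM, and Srsf1 at 87.9 and 12.8 CPM. In tables scaled separately, Srsf1 was at 6.14 to 18.5 CPM in wild-type and 11.3 to 19.3 CPM in knockout males and at 8.45 to 31.9 CPM in the doubly treated females. Hnrnpl was at 137 ± 12.9 CPM in the wild-type males (SD, n = 4). In the other direction Hnrnpa1, Hnrnpul1 and Snrpc were 3.11, 2.97 and 2.53 times higher in the males. These genes were chosen after their values were seen.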
